A study of Mus musculus with 136 samples.

Results

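Transcription and mRNA abundance were compared gene by gene in wild-type mouse macrophages given lipid A. RNA bound to chromatin, much of it not yet released from the polymerase, was set against polyadenylated mRNA at 0, 0.5, 1, 2 and 6 h. The genes were those whose RPKM (reads scaled to gene length and library size) was 1 or more in both fractions, as the highest mean over the 5 times in chromatin and the highest value in mRNA. Of 15196 genes in the table, 4220 met this rule. Of these, 3651 were at 1 RPKM or more in both fractions already at 0 h, and 569 reached it in a fraction only after stimulation, which favours induced genes. A further filter for the test, 1 RPKM or more in at least 6 of the 30 chromatin libraries, left 3883 of the 4220 genes, so 337 had no chromatin test. The bound of 1 RPKM cut through a dense part of the chromatin range: 201 genes lay between 1 and 1.1 RPKM inside it and 206 between 0.9 and 1 RPKM outside it. Another 275 genes passed in chromatin only and 2093 in mRNA only.

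Lipid A, the membrane anchor of bacterial endotoxin, is sensed on macrophages by the receptor TLR4. Its signal releases NF-kB and activates kinases within minutes, so that a first wave of genes is transcribed without new protein, and an interferon loop later switches on a second wave. The amount of an mRNA follows its transcription with a delay set by the time needed to transcribe and splice the gene and by the lifetime of the mRNA, and many cytokine mRNAs carry elements that mark them for rapid decay.

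The libraries came from bone marrow-derived macrophages of C57 wild-type mice, differentiated in M-CSF, at each of the 5 times. Chromatin RNA was read in 30 libraries, 6 at each time: replicates 2 and 3 of the wild-type arm of the Nfkb1 knockout series (Nfkb1_WT), and replicates 1 and 2 of the wild-type arms of the Nfkbiz and Bcl3 series (Nfkbiz_WT and Bcl3_WT). The mRNA series had 1 library at each time, labelled as polyA RNA, so no mRNA fold had a replicate check. A second polyA experiment, the Control libraries of the study's overexpression experiment (wild type, 0 and 2 h of lipid A, 1 library each), served as a check at 2 h. The extraction text of the mRNA samples speaks of chromatin RNA, while their molecule label says polyA RNA. The labels do not say which replicates came from separate animals or cultures, so the p-values measure the spread between these libraries, which may be in part technical. The chromatin and mRNA libraries are separate experiments, and a difference between the fractions cannot be told apart from a difference between the experiments, except where the Control libraries give a second reading.

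Chromatin libraries held 23380000 to 36670000 reads (median 30880000) and the mRNA libraries 8757000 to 11350000 (median 8996000), as recovered from the steps of the low values. Nfkb1_WT replicate 3 at 1 h stood apart from the other libraries of its time: its mean correlation with the other 5 was 0.84 against 0.91 to 0.92 for the rest, and leaving that replicate out moved no count given here by more than 1.5 times. Summed macrophage markers (Csf1r, Lyz2, Mertk, Fcgr1 and Cd14) were at 24.1 to 123 RPKM in chromatin and 6331 to 9161 RPKM in mRNA, and markers of dendritic cells, lymphocytes, mast cells and erythroid cells summed to at most 0.635 RPKM in either fraction, and stromal markers to at most 2.32 RPKM. Neutrophil granule genes were different between the fractions. Of 8 such genes, 7 reached 1 RPKM in mRNA and none did in chromatin, with summed levels of 71.8 to 104 RPKM in mRNA and 0.165 to 0.844 RPKM in chromatin. The part of such cells in the mRNA values was not tested.

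In chromatin, 312 of the 3883 genes were higher and 921 lower at 0.5 h, 335 and 869 at 1 h, 478 and 918 at 2 h, and 420 and 577 at 6 h (limma, Benjamini-Hochberg adjusted p under 0.05 and at least 2-fold). Over all 4174 genes tested the shares called higher were 7.59%, 8.27%, 12% and 10.4%, and those called lower 22.6%, 21.6%, 23.1% and 14.7%; these 4174 include the 3883. In mRNA, 130 genes were past 2-fold higher and 94 lower at 0.5 h, 235 and 209 at 1 h, 368 and 363 at 2 h, and 526 and 916 at 6 h. Over the 6313 genes at 1 RPKM or more in mRNA the shares past 2-fold higher were 2.33%, 4.56%, 7.21% and 10.1%, and lower 2%, 5.7%, 9.96% and 32.1%. Early chromatin changes had few counterparts in mRNA at the same time: at 0.5 h, 92 genes were higher and 14 lower in both fractions, and at 6 h 341 were higher and 451 lower in both.

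The balance of rises and falls in chromatin depends on the scale. The median log2 fold of all genes, in RPKM, was -0.55 at 0.5 h in chromatin and lay below 0 at every time (-0.38, -0.42 and -0.29 at 1, 2 and 6 h), while that of mRNA was -0.04, -0.20, -0.19 and -0.38. With each library centred on its median, chromatin gave 538 genes higher and 194 lower at 0.5 h and 573 and 347 at 1 h, and 684 higher and 468 lower at 2 h and 572 and 308 at 6 h. The centred mRNA libraries gave 725 genes higher and 593 lower at 6 h. Log2 folds below are on the RPKM scale with a pseudocount of 0.5, which makes the change of low genes smaller. A fold of the typical gene is therefore the median above, not 0.

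The induced genes were taken as those at least 4-fold higher in chromatin at their highest time and called there. Of these 310 genes, 172 were at 1 RPKM or more in chromatin at 0 h, 27 overlapped the span of another gene and 16 had no mRNA reads at 0 h. The fold that chose them was read in chromatin, but the rule of 1 RPKM in both fractions at any time also used mRNA, and 160 of the 310 were at 1 RPKM in both already at 0 h. The chromatin fold was highest at 0.5 h for 83 genes, at 1 h for 54, at 2 h for 111 and at 6 h for 62. In mRNA 290 of the 310 (93.5%) were 2-fold higher at some time, against 10.9% of the other 3573 genes. Among genes at 1 RPKM in both fractions at 0 h, where the rule needed no rise, it was 145 of the 160 (90.6%) against 6.93% of the other 3217.

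The time of the mRNA peak was then set beside that of the chromatin peak. Of the 248 genes whose chromatin fold peaked before 6 h, 215 (86.7%) had their highest mRNA fold at a later time, 31 at the same time and 2 earlier. Of the 83 genes with a chromatin peak at 0.5 h, 8 had the highest mRNA fold at 0.5 h, 35 at 1 h, 25 at 2 h and then 15 at 6 h. Of the 54 with a peak at 1 h, 13 had it at 1 h, 28 at 2 h and then 13 at 6 h. The genes with a chromatin peak at 2 h made the clearest step, with 99 of 111 highest in mRNA at 6 h and 10 at 2 h. As a background for 6 h alone, 24.7% of the genes that were not induced had their highest mRNA fold at 6 h. The 15 of 83 and 13 of 54 genes above with an mRNA peak at 6 h do not exceed this share. The shares of the other genes with an mRNA peak at 1 or 2 h are not given, so the 86.7% has no matched background.

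**Figure D1:**
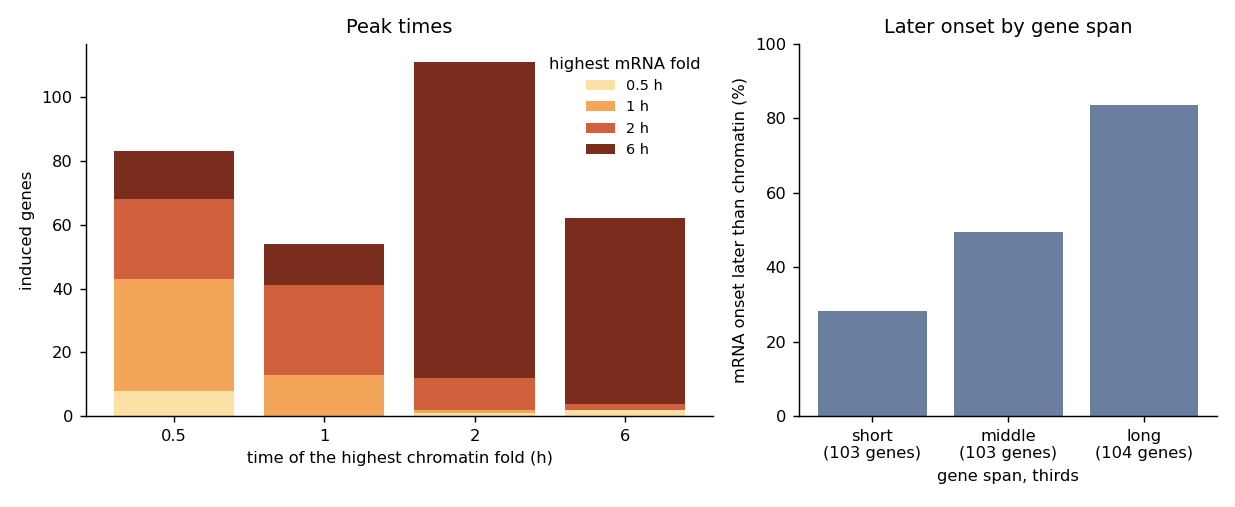
Left, number of induced genes (y axis) by the time of their highest chromatin fold (x axis, hours), with colours for the time of their highest mRNA fold. Right, share of induced genes (%) whose mRNA reached 2-fold later than their chromatin RNA, for 3 groups of genes ordered by span. The bar for a chromatin peak at 2 h is filled mostly by mRNA peaks at 6 h (99 of 111 genes), and the share with a later mRNA onset goes from 28.2% of the shortest genes to 83.7% of the longest.

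The median courses show the delay as a shape. Genes with a chromatin peak at 0.5 h had median chromatin log2 folds of 3.04, 1.99, 0.75 and 0.83 at 0.5, 1, 2 and 6 h, and mRNA folds of 1.15, 2.44, 1.98 and 1.34. For genes with a chromatin peak at 1 h the medians were 1.90, 2.65, 1.68 and 0.84 in chromatin and 0.45, 2.00, 2.88 and 1.62 in mRNA. With a chromatin peak at 2 h the medians were 0.21, 1.09, 2.66 and 2.06 in chromatin and -0.01, 0.15, 1.25 and 3.15 in mRNA, so that mRNA had hardly moved at the time when nascent RNA had passed 2-fold. Genes peaking at 6 h had chromatin medians of 0.16, 0.71, 1.96 and 2.51 and mRNA medians of -0.01, 0.18, 0.96 and 3.39. The fall of chromatin RNA after its peak is in part fixed by choosing the peak. When the peak time was taken from the Nfkb1_WT and Nfkbiz_WT libraries and the folds were read in the Bcl3_WT libraries, the 80 genes with a peak at 0.5 h had chromatin medians of 3.06, 1.88, 0.62 and 0.76 and mRNA medians of 1.13, 2.44, 1.90 and 1.12.

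**Figure D2:**
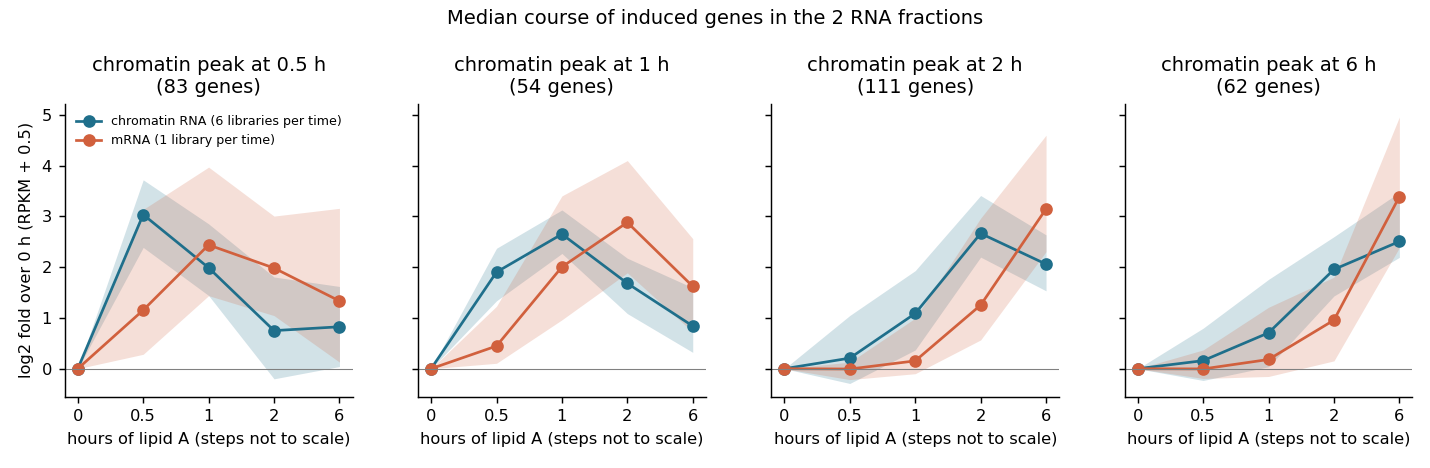
Median log2 fold over 0 h (y axis, RPKM plus 0.5) of induced genes by time of lipid A (x axis, hours, steps not to scale), with 1 panel for each time of the chromatin peak; shading spans the middle 50% of genes, lines join the medians. The mRNA line lags the chromatin line in the panels for 0.5, 1 and 2 h: after a chromatin median of 3.04 at 0.5 h, mRNA reached its highest median, 2.44, at 1 h.

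Cxcl1 and Cxcl2, chemokines that draw neutrophils, are neighbours on chromosome 5 (mm9, gap of 10783 bases) and both peaked in chromatin at 0.5 h. Chromatin RNA of Cxcl1 was at 0.0306, 0.0881 and 0.251 RPKM at 0 h (lowest, median and highest of 6 libraries), 28.7, 43.1 and 57.6 at 0.5 h, 13.7, 28.9 and 34.8 at 1 h, 1.44, 5.0 and 6.72 at 2 h and then 0.148, 0.462 and 1.5 at 6 h. The mRNA of Cxcl1 was at 1.11, 414, 1521, 409 and 92.1 RPKM at 0, 0.5, 1, 2 and 6 h. In chromatin every library at 0.5 h was above every library at 0 h, and the medians were then lower at each time, whereas mRNA was highest at 1 h and at 6 h still far above its start. The chromatin log2 fold was 6.13 ± 0.25 (SE) at 0.5 h (limma, adjusted p = 2e-17) and 0.83 ± 0.25 at 6 h (adjusted p = 0.004, under 2-fold), against 8.00 and 5.84 in mRNA. Cxcl2 went from a chromatin median of 0.536 to 183, 50.5, 11.8 and 7.47 RPKM, and its mRNA was at 3.37, 1065, 2877, 458 and 279 RPKM. Its lowest chromatin library at 0.5 h (107 RPKM) was below the highest at 1 h (149 RPKM).

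Ccl5, a chemokine for T cells and monocytes, showed the same order at later times. Its chromatin RNA was at 0.0831, 0.247 and 0.475 RPKM at 0 h (lowest, median and highest of 6), 4.15, 9.39 and 14.9 at 0.5 h, 56.1, 72.6 and 99.3 at 1 h, 115, 182 and 222 at 2 h and then 74.4, 89.3 and 149.9 at 6 h. Its mRNA was at 15.4, 13.8, 235, 1710.0 and 8556 RPKM. The chromatin libraries at 0 h did not overlap those of any later time, and at 0.5 h, when chromatin had risen by 3.55 ± 0.24 on the log2 scale (adjusted p = 4.1e-13), the mRNA fold was -0.15. The antiviral genes Rsad2 and Cmpk2, neighbours on chromosome 12 (gap of 12762 bases), followed the same course. Rsad2 had chromatin medians of 6.81, 24.9, 91.8, 358 and 165 RPKM and mRNA levels of 7.26, 6.63, 30.8, 222 and 1030.3 RPKM. Cmpk2 had chromatin medians of 4.12, 6.43, 30.4, 230.3 and 82.8 RPKM and mRNA levels of 7.2, 7.62, 9.77, 90.7 and 904 RPKM, so its mRNA had not reached 2-fold at 1 h. The guanylate-binding protein gene Gbp5 rose in chromatin from 0.496 to 86.3 RPKM (medians at 0 and 2 h, log2 fold 6.40 ± 0.24), and its mRNA was at 0.445, 1.05, 27, 108 and 478 RPKM. Il27, a cytokine subunit, and Tnfsf9, the ligand of a T-cell costimulatory receptor, complete the 8 induced genes of largest chromatin fold with a later mRNA peak. Il27 mRNA had no reads at 0 h, so no fold is given, and was then at 0.375, 10.3, 79.5 and 124 RPKM. Tnfsf9 mRNA was at 3.75, 459, 1432, 364 and 102 RPKM with chromatin medians of 1.94, 109, 51.6, 13.8 and 11.7 RPKM.

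The stretches before the start of early and late genes are shown for the motifs counted below; they are from the 3 genes of largest chromatin fold with a promoter entry among those peaking at 0.5 h (Cxcl2, Cxcl1 and Clec4e) and at 2 h (Cxcl10, Gbp5 and Cmpk2), and the 4 with a match in the window are printed. Ccl5, Il27 and Tnfsf9 have no entry. They are the 250 bases before the start, 5′ to 3′ on the strand of the gene, credited to RefSeq on GRCm38.p6, a later build than the mm9 of the expression table. Capitals mark matches, on either strand, to the NF-kB motif (starting GGGA, with 4 free bases and a last pair of C), an interferon response element (GAAA repeated with 2 free bases between), TGANTCA (AP-1), TGACGTCA (CRE) or a CArG box. A match to GGGAATTTCCC is 2 overlapping matches.
Cxcl1 (chr5:90890995-90891244, + strand, chromatin peak at 0.5 h): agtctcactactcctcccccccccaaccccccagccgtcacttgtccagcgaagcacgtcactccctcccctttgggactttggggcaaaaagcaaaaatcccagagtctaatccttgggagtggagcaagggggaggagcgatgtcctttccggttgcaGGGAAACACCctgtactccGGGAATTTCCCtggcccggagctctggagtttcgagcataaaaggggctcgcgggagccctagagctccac
Cxcl2 (chr5:90903649-90903898, + strand, 0.5 h): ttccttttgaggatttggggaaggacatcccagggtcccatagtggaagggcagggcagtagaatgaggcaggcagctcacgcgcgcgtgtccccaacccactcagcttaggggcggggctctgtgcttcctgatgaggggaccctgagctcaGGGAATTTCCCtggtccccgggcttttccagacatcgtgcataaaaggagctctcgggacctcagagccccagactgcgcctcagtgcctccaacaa
Cxcl10 (chr5:92348890-92349139, - strand, 2 h): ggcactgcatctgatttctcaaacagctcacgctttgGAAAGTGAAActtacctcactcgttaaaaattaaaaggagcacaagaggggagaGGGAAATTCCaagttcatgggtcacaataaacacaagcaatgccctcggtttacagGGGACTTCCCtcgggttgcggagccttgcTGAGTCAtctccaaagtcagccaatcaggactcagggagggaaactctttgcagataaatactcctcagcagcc
Gbp5 (chr3:142496684-142496933, + strand, 2 h): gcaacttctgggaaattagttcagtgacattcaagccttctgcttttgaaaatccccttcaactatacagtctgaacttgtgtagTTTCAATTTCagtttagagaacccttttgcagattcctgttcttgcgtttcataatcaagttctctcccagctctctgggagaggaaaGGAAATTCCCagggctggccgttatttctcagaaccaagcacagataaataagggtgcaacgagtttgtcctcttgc
Cxcl1 and Cxcl2 hold NF-kB matches and no interferon response element in this window, while Cxcl10 and Gbp5 hold both kinds. The windows of Clec4e and Cmpk2 hold none of these motifs. Across the windows of 300 bases (250 before to 50 after the start), the NF-kB motif was in 33.3% of the 57 genes with an entry among those peaking at 0.5 h, 25% of 40 at 1 h, 35% of 80 at 2 h and 24.5% of 53 at 6 h, beside 20.5% of all 27025 windows and 25% of the 2847 tested genes with an entry. The interferon response element was in 7.02%, 0%, 27.5% and 11.3% of these groups, beside 3.49% of all windows and 4.07% of the tested genes. TGACGTCA was in 14%, 0%, 0% and 5.66%, beside 1.88% and 3.62%. TGANTCA was in 5.26%, 12.5%, 17.5% and 9.43%, beside 7.93% and 5.48%, and a CArG box in 5.26%, 0%, 1.25% and 1.89%, beside 1.57% and 1.65%. These are descriptions of letters, not of binding.

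The first time at 2-fold or more was also later in mRNA for most genes. Onset was later in mRNA for 167 of the 310 genes, at the same time for 118 and earlier for 5, and 20 never reached 2-fold in mRNA. Of the 175 genes whose chromatin RNA was at 2-fold by 0.5 h, 76 reached 2-fold in mRNA at 0.5 h, 61 at 1 h, 18 at 2 h and then 7 at 6 h, with 13 at no time. Of the 80 with a chromatin onset at 2 h, 24 reached it in mRNA at 2 h and then 52 at 6 h.

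The lag went with the length of the gene. In the shortest 103 induced genes (65 to 8046 bases) mRNA onset was later in 29 (28.2%), in the middle 103 (8083 to 23195 bases) in 51 (49.5%), and in the longest 104 (23201 to 277921 bases) in 87 (83.7%). Among genes with a chromatin peak at 0.5 h alone the counts were 3 of 37, 5 of 24 and 18 of 22. Chromatin reads were scaled to the whole gene span, introns included. No test was made over these groups, which are genes of the same libraries.

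Fmnl2, a regulator of actin filaments, is a long example (chromosome 2, 52716901 to 52993236 in mm9, 276335 bases). Its chromatin RNA was at 0.136, 0.244 and 0.368 RPKM at 0 h (lowest, median and highest of 6), 0.482, 0.921 and 1.55 at 1 h, 3.78, 5.57 and 8.02 at 2 h and then 2.66, 5.18 and 5.77 at 6 h. Its mRNA was at 1.2, 0.888, 1.22, 1.22 and 8.76 RPKM. All 6 chromatin libraries at 2 h were above all those at 0 h, while the mRNA library at 2 h equalled that at 1 h. The chromatin log2 fold at 2 h was 3.08 ± 0.14 (limma, adjusted p = 1.5e-16) and the mRNA fold 0.01, and at 6 h they were 2.80 ± 0.14 and 2.45. The comparison of fractions at 2 h, given below, also uses the Control experiment and had a smaller gap for Fmnl2. The flat mRNA up to 2 h thus rests on single libraries of the mRNA series. At the short end stand the immediate-early genes. Egr1, a transcription factor gene of 3750 bases, was at 0.0306, 0.119 and 0.192 RPKM in chromatin at 0 h, 6.32, 11 and 28.1 at 0.5 h, 0.218, 0.665 and 0.938 at 1 h and 0.0456, 0.109 and 0.292 at 2 h, and its mRNA was at 2.25, 792, 326, 9.48 and 2.12 RPKM. Both fractions were highest at 0.5 h, but at 1 h the chromatin fold was 0.81 ± 0.23 (limma, adjusted p = 0.002) and the mRNA fold 6.89. The pseudocount of 0.5, above the chromatin level at 0 h, makes this chromatin fold smaller. In all chromatin libraries at 1 h, Egr1 was still above its range at 0 h. Fos, its partner in the first wave, was at a chromatin median of 1.4 at 0 h and 4.0 RPKM at 0.5 h (log2 fold 1.54 ± 0.21), with mRNA at 11.4, 336, 100, 4.35 and 18 RPKM. A separate chromatin series of macrophages given DMSO before lipid A, with 1 library per time, had Fos at 3.20, 49.5, 9.83 and 0.874 RPKM at 0, 15, 30 and 60 min. Its highest value was thus at a time that the main series did not sample, and a peak at 0.5 h here means no more than the highest of the times measured.

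**Figure D3:**
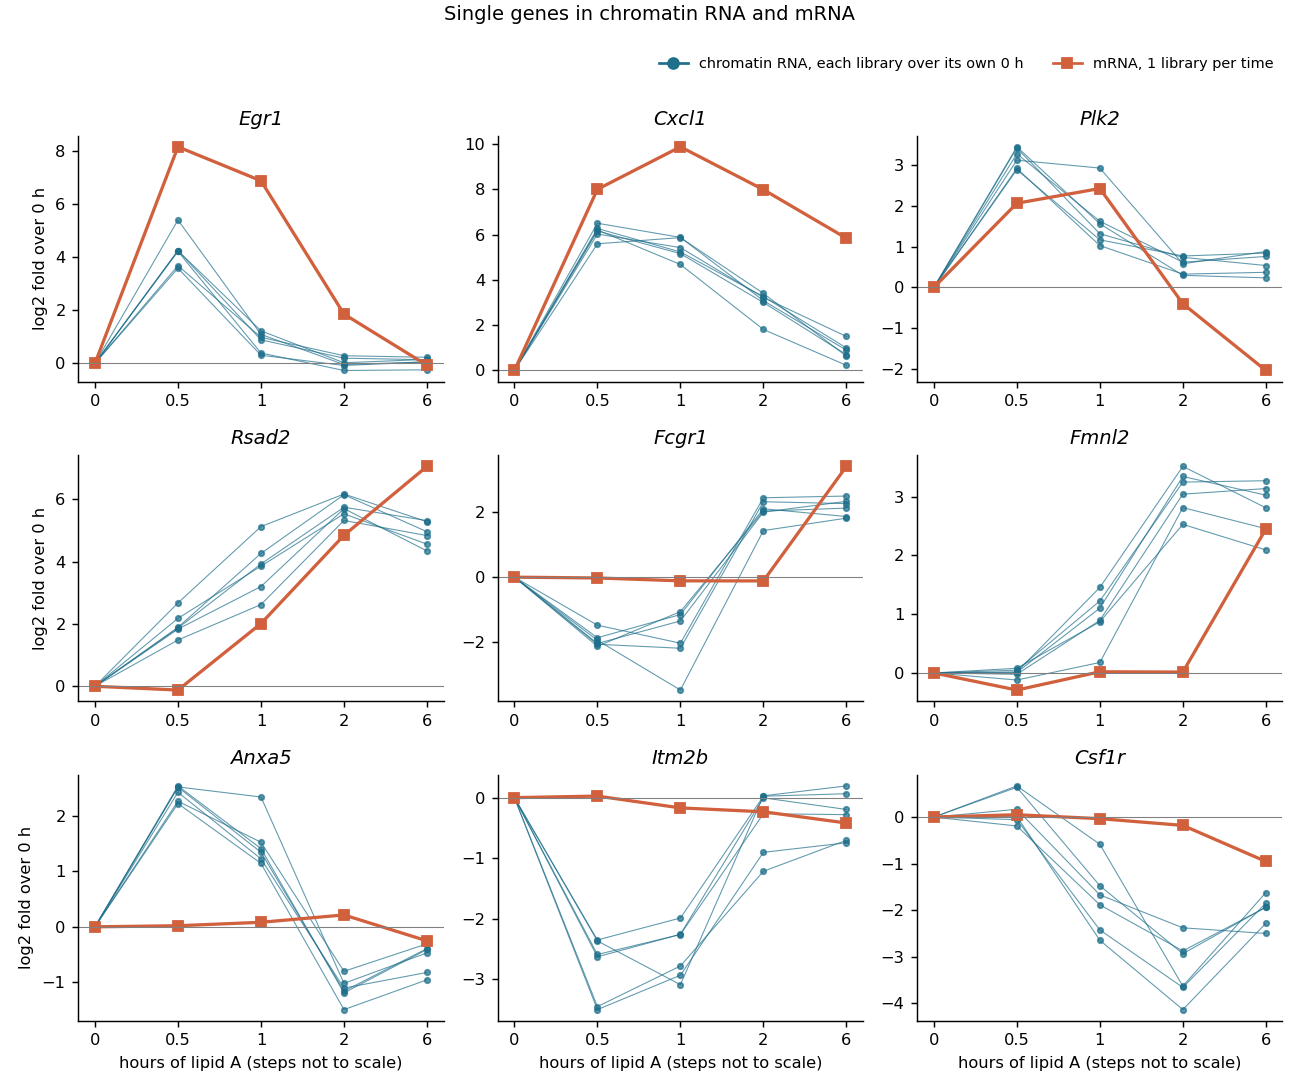
Log2 fold over 0 h (y axis) by time of lipid A (x axis, hours, steps not to scale) for 9 genes; thin lines are the 6 chromatin replicates, each over its own 0 h library, and the thick line with squares is the mRNA series, 1 library per time. Egr1, Cxcl1 and Plk2 lose chromatin RNA before mRNA, Rsad2, Fcgr1 and Fmnl2 gain it first, and in Anxa5, Itm2b and Csf1r a large chromatin change at 0.5 to 2 h meets a nearly flat mRNA line.

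Few genes ran the other way. Mir155, Socs3, Dusp2 and Gadd45g were the 4 of largest chromatin fold with an earlier mRNA peak. Socs3, an inhibitor of cytokine receptor signalling, had chromatin medians of 0.302, 19.2, 34.9, 38.3 and 45.9 RPKM, and mRNA at 1.16, 247, 535, 699 and 596 RPKM. Its chromatin libraries overlapped at 1, 2 and 6 h, so the later peak in chromatin is within their spread. Dusp2, a MAP kinase phosphatase, had mRNA at 0.594, 90.8, 52.9, 74.6 and 48.6 RPKM and chromatin medians of 17.1, 16.3, 19.4 and 18.1 RPKM from 0.5 h on, again with overlapping libraries. Gadd45g, a stress-response gene, had chromatin medians of 1.48, 2.2, 1.74 and 2.03 RPKM up to 2 h and 9.03 RPKM at 6 h, while its mRNA was at 7.03, 15.3, 4.03, 7.62 and 6.56 RPKM.

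The locus of the microRNA miR-155, which targets many immune mRNAs, is 65 bases long in the table and stands for reads of its precursor transcript. It was at 0.42, 0.694 and 1.93 RPKM at 0 h and 66.4, 80.2 and 102 RPKM at 2 h in chromatin (log2 fold 5.96 ± 0.20, adjusted p = 4.5e-19), and in mRNA had no reads at 0 h and then 1.36, 30.9, 30.8 and 12.3 RPKM. The earlier mRNA peak thus rests on 30.9 against 30.8 RPKM in single libraries. In all, 14 induced entries were microRNA loci, and all 14 were found in RefSeq, with 25 mature sequences. The sequences of those best known in this response are printed with the seed, bases 2 to 8, in capitals, since the seed sets which mRNAs a microRNA pairs with; neither fraction measured the mature form.
miR-155-5p: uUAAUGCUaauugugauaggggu
miR-146a-5p: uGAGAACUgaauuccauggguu
miR-21a-5p: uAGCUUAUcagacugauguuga
miR-221-3p: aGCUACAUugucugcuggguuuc
miR-222-3p: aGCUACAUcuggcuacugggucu
The last pair share the seed GCUACAU, the only seed found more than once among the 25, and their loci lie 504 bases apart on the X chromosome. The chromatin fold was highest at 0.5 h for the loci of miR-21a, miR-221 and miR-222, at 2 h for that of miR-155 and at 6 h for that of miR-146a. The miR-146a locus had overlapping libraries from 0.5 h on (medians 15.8, 16.5, 12.7 and 16.2 RPKM), so its peak time is within their spread. Libraries of miR-155 at 1 and 2 h overlapped too, as did those of miR-221 and miR-222 at 0.5 and 1 h.

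At the last time the mRNA fold of induced genes was more often above than below their chromatin fold. At 6 h, 211 of the 310 induced genes were at 2-fold or more in both fractions, 37 in mRNA only, 14 in chromatin only and 48 in neither. Among the 83 genes with a chromatin peak at 0.5 h, 46 were still 2-fold higher in mRNA at 6 h and 38 in chromatin, with 13 in mRNA only, and among the 54 with a peak at 1 h the counts were 38, 24 and 15. The median over genes of the mRNA minus the chromatin log2 fold at 6 h was 0.60, 0.57, 1.03 and 0.72 for chromatin peaks at 0.5, 1, 2 and 6 h. Set against the range of the 6 chromatin replicates, the mRNA fold was below all 6 for 188 induced genes and above all 6 for 57 at 0.5 h, below for 127 and above for 79 at 1 h, below for 143 and above for 124 at 2 h, and below for 39 and above for 199 at 6 h. Over all 3883 genes the shares above were 60.1%, 42.1%, 48.9% and 25.7% at these times, and the shares below 20.8%, 21.7%, 26.4% and 36.2%, so at 0.5 and 6 h the induced genes were placed the other way from the whole set.

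The interleukin-1 genes Il1b and Il1a, pro-inflammatory cytokines side by side on chromosome 2, were among the 8 induced genes whose mRNA fold most exceeded the chromatin fold at 6 h. Il1b was at 0.0317, 0.0543 and 0.104 RPKM in chromatin at 0 h (lowest, median and highest of 6), 12.6, 45.5 and 82.1 at 0.5 h, 22.2, 53.8 and 69.4 at 1 h, 9.6, 15.5 and 18.9 at 2 h and then 2.14, 7.97 and 17.4 at 6 h. Its mRNA was at 0.362, 112, 867, 525 and 839 RPKM. The chromatin libraries at 6 h lay below all those at 1 h, whereas mRNA at 6 h was close to its value at 1 h. The chromatin fold was 3.74 ± 0.32 at 6 h (adjusted p = 5.9e-11) and the mRNA fold 9.93. Il1b and Il1a each overlap another gene of the table, and reads there could be shared. Il1a had chromatin medians of 0.0534, 3.88, 4.64, 2.06 and 1.04 RPKM and mRNA at 0.195, 3.57, 78.6, 37.2 and 45.6 RPKM, lower at 2 h than at 1 h.

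The others of these 8 were the chemokines Ccl22, Cxcl1, Ccl12 and Ccl7, the interferon-inducible Ifi205, and Ptges, which makes prostaglandin E2. Ccl22 was low in chromatin at 0.00678, 0.0112 and 0.0251 RPKM at 0 h and 0.441, 1.6 and 5.9 RPKM at 1 h (log2 fold 2.05 ± 0.31, adjusted p = 1.4e-06), and at 6 h its fold of 0.63 ± 0.31 did not pass (adjusted p = 0.071), while its mRNA was at 0.159, 0.389, 7.53, 36 and 49 RPKM. Its chromatin libraries at 1 h were spread widely, and all lay above those at 0 h. At 6 h they were at 0.0907, 0.322 and 0.533 RPKM, again all above those at 0 h. The fold at 6 h is small because the pseudocount of 0.5 is far above the level at 0 h. Chromatin RNA of Il1b, Il1a, Cxcl1, Ifi205 and Ptges at 0 h was also far below 0.5 RPKM, which adds to their mRNA excess. Ifi205 mRNA was at 0.238, 0.109, 2.42, 21.2 and 259 RPKM against chromatin medians of 0.0265, 6.03 and 4.59 RPKM at 0, 2 and 6 h, and Ptges mRNA at 0.711, 0.676, 2.05, 13.3 and 209 RPKM against 0.0782, 0.765 and 4.27 RPKM. Ccl7, Ccl12 and Ifi205 belong to families of related genes, and whether the counting split reads among their members was not tested.

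At the other end of the range mRNA was lower than chromatin at 6 h. Plk2, a kinase of the stress response, was at 3.45, 4.6 and 8.76 RPKM in chromatin at 0 h, 28.6, 48.5 and 89.1 at 0.5 h and 4.72, 6.55 and 15.2 at 6 h, and its mRNA was at 61.9, 260.3, 334, 46.9 and 14.8 RPKM. All chromatin libraries at 0.5 h were above those at 0 h, and those at 6 h overlapped them, while mRNA at 6 h was below its start. The chromatin fold at 6 h was 0.60 ± 0.31 (adjusted p = 0.077) and the mRNA fold -2.03. In 6 of the 83 genes with a chromatin peak at 0.5 h the mRNA was 2-fold or more below its start at 6 h, and in none of the 54 with a peak at 1 h. Apobr, a lipoprotein receptor, and Heatr9, also in this group, lie beside strongly induced genes: Apobr 202 bases from Il27, and Heatr9 3679 bases from Ccl5. Apobr differed between the series. Its log2 fold at 6 h was 0.52 and 0.05 in the Nfkb1_WT libraries and between 2.90 and 3.33 in the Nfkbiz_WT and Bcl3_WT libraries, with mRNA at 46.3, 40.2, 48.2, 57.8 and 37.6 RPKM. Whether its chromatin reads come from its neighbour was not tested.

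Across genes the closest match of mRNA at 1 and 2 h was an earlier chromatin time, and at 6 h the same time. Over the 3883 genes, Spearman's rho of the mRNA fold at 0.5 h with the chromatin fold at 0.5 h was 0.16. The mRNA fold at 1 h went with chromatin at 0.5 h (0.58) more than at 1 h (0.51), that at 2 h with chromatin at 1 h (0.71) more than at 2 h (0.56), and that at 6 h with chromatin at 6 h (0.79) and 2 h (0.74). Over the 310 induced genes rho was 0.81 between chromatin at 0.5 h and mRNA at 1 h and, for mRNA at 6 h, 0.68 with chromatin at 2 h and 0.74 with chromatin at 6 h. The change of mRNA between successive times was compared in the same way. From 0.5 to 1 h it went with the chromatin fold at 0.5 h (0.59), from 1 to 2 h with that at 1 h (0.49) and 2 h (0.49), and from 2 to 6 h with that at 6 h (0.59) and 2 h (0.48) but not 0.5 h (0.02). These are correlations across genes of shared libraries, each fraction over its own 0 h, and are given without a test.

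**Figure D4:**
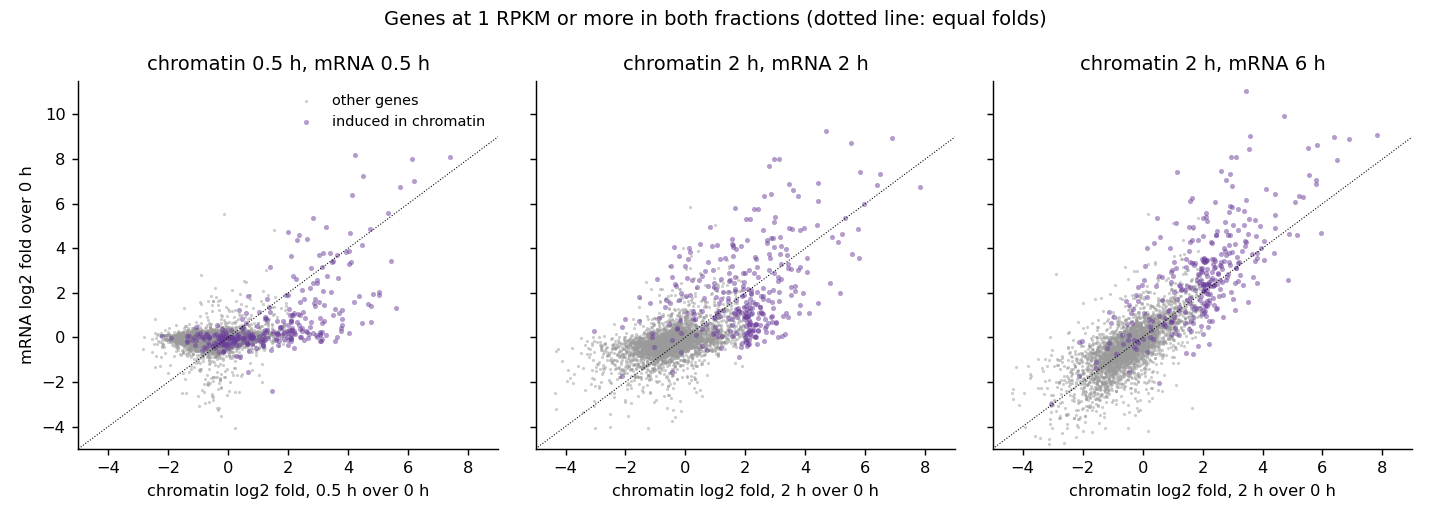
Log2 fold in mRNA (y axis) against log2 fold in chromatin RNA (x axis) for the 3883 genes tested, with induced genes in purple and a dotted line of equal folds; panels pair chromatin and mRNA at 0.5 h, at 2 h, and chromatin at 2 h with mRNA at 6 h. At 0.5 h most genes lie along the horizontal, with a spread in chromatin and little in mRNA (rho 0.16), and the cloud tilts to the diagonal when mRNA at 6 h is set against chromatin at 2 h (rho 0.74).

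Falls in chromatin were set beside mRNA in the same way. Of the 252 genes at least 4-fold lower in chromatin at their lowest time and called there, mRNA was 2-fold lower at some time in 204 and within 1.5-fold of its start at all times in 9. Their chromatin medians were -1.21, -1.79, -2.28 and -1.69 at 0.5, 1, 2 and 6 h, and their mRNA medians -0.02, -0.28, -0.75 and -1.77. The number with mRNA 2-fold lower was 11, 31, 101 and 191 at these times. Of the 214 genes whose chromatin was lowest before 6 h, mRNA was lowest at a later time in 176. As a background for 6 h alone, 46.2% of the other genes had their lowest mRNA at 6 h, and no background is given for earlier times. By 6 h the chromatin of 51 of the 252 was back within 2-fold of its start, and in 16 of those mRNA was still 2-fold lower.

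Csf1r, the receptor for the growth factor M-CSF in which these cells were grown, was at 16.7, 23 and 34.7 RPKM in chromatin at 0 h (lowest, median and highest of 6), 16.2, 31.3 and 42.4 at 0.5 h, 4.67, 5.48 and 12.4 at 1 h, 1.06, 2.19 and 3.1 at 2 h and then 2.54, 5.99 and 9.26 at 6 h. Its mRNA was at 988, 1024, 965, 873 and 510.3 RPKM. The chromatin libraries at 1, 2 and 6 h were all below those at 0 h, and the mRNA series was within 1.5-fold of its start up to 2 h and lower at 6 h (fold -0.95). The chromatin fold at 2 h was -3.27 ± 0.23 (adjusted p = 5.3e-13) and the mRNA fold -0.18, or -0.63 in the Control experiment.

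In some genes chromatin moved and mRNA stayed. Buffered genes were taken as those called in chromatin at some time with mRNA within 1.5-fold of its start at all 4 times. There were 84 among the 782 genes that rose in chromatin at some time (10.7%) and 300 among the 1653 that fell (18.1%), with 10 in both, beside 29.1% of all 3883 genes with mRNA within 1.5-fold. Over the 4174 genes tested, 19.7% rose and 41.3% fell at some time. The lowest chromatin fold was at 0.5 h in 175 of the 300 genes, at 1 h in 41, at 2 h in 70 and at 6 h in 14. The rises were highest at 0.5, 1, 2 and 6 h in 28, 12, 29 and 15 genes. When each library was centred on its median the counts were 145 rises and 127 falls.

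By median, buffered genes had more mRNA at 0 h than all genes called in chromatin. The median mRNA level at 0 h was 36.8 RPKM in buffered rises and 24.8 RPKM in buffered falls. It was 10.3 and 18.5 RPKM in all genes that rose or fell in chromatin and 14.4 RPKM in all tested genes. The bound of 1.5-fold in single libraries can itself favour abundant mRNA, since counting noise is larger for low mRNA. The level of all 1129 genes with mRNA within 1.5-fold is not given, so the comparison has no matched background. With genes in 3 equal groups by mRNA level at 0 h, a chromatin rise was met by 2-fold higher mRNA in 77.7% of the lowest (268 of 345), 68.8% of the middle (143 of 208) and 52% of the highest (119 of 229). A chromatin fall was met by 2-fold lower mRNA in 55.6%, 54.7% and 45.6%. The lowest group ran from 0 to 8.22 RPKM, and every gene had to reach 1 RPKM in mRNA at some time. Genes that began under 1 RPKM in mRNA thus had to rise, and the 77.7% is in part fixed by the rule. The Control libraries give a second reading at 2 h. Of the buffered genes called higher in chromatin at 2 h, 23 of 32 were also within 1.5-fold there and 1 was past 2-fold higher, and of those called lower at 2 h, 46 of 91 were within 1.5-fold and 14 were past 2-fold lower.

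Anxa5, an abundant protein that binds exposed phosphatidylserine, had a pulse in chromatin that its mRNA did not show. Chromatin RNA was at 4.14, 4.49 and 6.09 RPKM at 0 h (lowest, median and highest of 6), 26, 27.3 and 31 at 0.5 h, 11.6, 13 and 22.9 at 1 h, 1.61, 1.8 and 3.28 at 2 h and then 2.42, 2.99 and 4.83 at 6 h. Its mRNA was at 728, 737, 769.8, 844 and 611 RPKM and, in the Control experiment, at 502 and 634 RPKM at 0 and 2 h. The chromatin libraries at 0.5 h were all above and those at 2 h all below those at 0 h. The folds were 2.41 ± 0.16 at 0.5 h (adjusted p = 1.7e-13) and -1.13 ± 0.16 at 2 h (adjusted p = 3e-07). The RNA helicase gene Dhx40 had chromatin medians of 0.523, 4.81, 1.38, 0.288 and 1.8 RPKM with mRNA at 6.76, 6.2, 6.45, 6.09 and 7.3 RPKM. Apobr, described above, was also in this group, as were Cdyl2, the neuropeptide gene Npy and Fam129b.

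The largest buffered fall was that of Itm2b, a transmembrane protein gene. Its chromatin RNA was at 9.27, 12.3 and 18.3 RPKM at 0 h, 1.05, 1.43 and 1.72 at 0.5 h, 0.646, 2.07 and 2.29 at 1 h, 7.59, 9.75 and 11.6 at 2 h and then 9.95, 10.4 and 11 at 6 h, and its mRNA at 1030.4, 1049, 916, 876 and 770.1 RPKM. The libraries at 0.5 and 1 h were all below those at 0 h, and those at 2 and 6 h overlapped them (fold -2.82 ± 0.17 at 0.5 h, adjusted p = 5.1e-14). Siglec1, a sialic acid receptor of macrophages, had chromatin medians of 15.3, 6.61, 1.96, 4.83 and 16.8 RPKM with mRNA at 53.9, 60.1, 53.4, 47.5 and 74.9 RPKM. Dusp7, a MAP kinase phosphatase, went the same way in chromatin (medians 3.64, 0.967, 2.0, 0.313 and 1.56 RPKM) with mRNA at 27.2, 26.2, 24.1, 30.6 and 25 RPKM, but the Control experiment had its mRNA at 34.4 and 4.87 RPKM at 0 and 2 h. The polyA experiments therefore differed for Dusp7, and its place among the buffered genes rests on the mRNA series.

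Movement of mRNA without chromatin was counted among genes with chromatin within 1.5-fold of its start at all times. The share of all tested genes with such chromatin is not given here, so the counts have no background. Of the 678 genes past 2-fold higher in mRNA 24 were of this kind, and of the 1098 past 2-fold lower 62 were. Of these, 16 and 36 were entries under 200 bases, among them Snord72, Snora16a, Snora68 and Rnu11, small nuclear and nucleolar RNAs that carry no polyA tail. Smu1, a splicing factor gene with the largest such rise, had no mRNA reads at 0 h and 23 to 28 RPKM later, but was at 36.1 RPKM at 0 h in the Control libraries. In the table, 33 genes were like it, without reads in 1 mRNA library of 9 and with a median of 2 RPKM or more over all of them, and Clcn6 was such a gene at 0.5 h; a value without reads in such a library can be a failed estimate, and what it stands for was not tested. Among spans of 200 bases or more with reads in all mRNA libraries, 7 genes were left for rises and 24 for falls. Of the 7 rises, Snx20, Rpl27 and Tlnrd1 were past 2-fold at 2 h. Snx20, a sorting nexin, had mRNA at 42.8, 49.7, 65.9, 86.4 and 111 RPKM and was also past 2-fold in the Control experiment (log2 fold 1.06 at 2 h), whereas the other 6 were not: Rpl27, a ribosomal protein gene, had 1.42 in the mRNA series and -0.44 in Control, and Tlnrd1 had 1.07 and -0.22. Of the falls, 5 were past 2-fold at 2 h, and among these only that of Zfc3h1, an RNA exosome cofactor, was so in Control as well (7.35, 3.89, 3.44, 3.07 and 5.89 RPKM in the mRNA series, log2 fold -1.32 in Control). These genes were chosen after their values were seen.

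The difference between the fractions could be tested at 2 h, where the mRNA series and the Control experiment give 2 polyA readings of each time. The fit pooled the spread of 12 chromatin and 4 polyA libraries. Its SEs and p-values therefore measure mostly the spread of the chromatin libraries, and can understate that between the polyA experiments. Among 3887 genes, the polyA fold was above the chromatin fold in 415 (10.7%) and below it in 210 (5.4%) (limma interaction, adjusted p under 0.05 and a 2-fold difference), and 1670 had an unadjusted p under 0.05. The median difference of all genes was 0.17 on the log2 scale, and with each library centred on its median 269 were above and 334 below, so which side held more genes depended on the scale. Of the 415, 345 had chromatin below its start, and of the 210, 194 had chromatin above it. The groups of induced genes were split by time: with a chromatin peak at 0.5 h polyA was above in 28 of 65 and below in 2, at 1 h above in 20 of 44 and below in none, at 2 h above in 9 of 104 and below in 37, and at 6 h above in 7 of 47 and below in 13. Median differences were 0.96, 1.04, -0.63 and -0.57. The peak times were chosen with the same chromatin libraries at 0 and 2 h that enter this comparison. The side on which each group lay is thus in part fixed by that choice. Between the folds of the polyA experiments at 2 h, r was 0.785 and rho 0.673 across 3883 genes. With the chromatin folds at 2 h, rho was 0.71 for the Control experiment and 0.56 for the mRNA series.

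Il1b had the largest difference, 5.11 ± 0.35 (SE, adjusted p = 1.8e-06), followed by Il1a (adjusted p = 0.00014) and Cxcl1 at 4.87 ± 0.50 (adjusted p = 2.9e-05). The Control experiment had Il1b mRNA at 0.841 RPKM at 0 h and 1763 RPKM at 2 h, against 0.362 and 525 RPKM in the mRNA series, so both polyA readings were above the chromatin fold of 4.70 ± 0.32. Chromatin medians at 0 h were 0.0543 RPKM for Il1b, 0.0534 for Il1a and 0.0881 for Cxcl1, far below the pseudocount of 0.5. This makes their chromatin folds smaller, so the size and order of these differences depend on the pseudocount. Below the chromatin fold stood Fmnl2 at -2.59 ± 0.28 (adjusted p = 4.2e-05), the costimulatory receptor gene Cd86 at -2.34 ± 0.15 (adjusted p = 1.5e-06), and Tspo, a mitochondrial membrane protein gene, at -2.41 ± 0.23 (adjusted p = 1.7e-05). Tspo was abundant as mRNA throughout (234, 266, 216, 274 and 447 RPKM), with chromatin medians of 1.59, 0.504, 7.11, 12.5 and 9.42 RPKM. Cd86 chromatin medians were 0.843, 2.26, 5.92, 12.6 and 3.63 RPKM, and its mRNA was at 3.18, 2.43, 3.83, 6.61 and 25 RPKM, highest at 6 h. The Fc receptor gene Fcgr1 both fell and rose in chromatin: 3.81, 4.52 and 7.08 RPKM at 0 h (lowest, median and highest of 6), 0.543, 0.929 and 1.59 at 0.5 h, 0.185, 1.0 and 2.92 at 1 h, 17.8, 21.4 and 32 at 2 h and then 19.2, 24.7 and 27.1 at 6 h, with folds of -1.92 ± 0.26 at 0.5 h (adjusted p = 1.7e-07) and 2.05 ± 0.26 at 2 h (adjusted p = 4.9e-08). Its mRNA was at 37.3, 36.6, 34.4, 34.4 and 399 RPKM, flat to 2 h and high only at 6 h, and the difference at 2 h was -1.87 ± 0.40 (adjusted p = 0.0034).

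Gene groups by role are given by their counts and medians beside the background above, with no test of the group. Of 13 chemokine genes 13 rose in chromatin at some time and 13 were past 2-fold higher in mRNA, with chromatin medians of 3.50, 3.88, 3.12 and 2.92 at 0.5, 1, 2 and 6 h and mRNA medians of 3.16, 4.78, 6.34 and 6.18. Of their 12 induced genes with a chromatin peak before 6 h, 10 had a later mRNA peak. Cxcl10, an interferon-inducible chemokine, had chromatin medians of 1.13, 63.8, 64.4, 204 and 108 RPKM and mRNA at 3.61, 44.2, 609, 2003 and 1949 RPKM. All 11 cytokine and growth factor genes rose in chromatin and were past 2-fold in mRNA, 5 of 9 with a later mRNA peak. Of 15 immediate-early transcription factors 13 rose and 2 fell in chromatin at some time, while 14 were past 2-fold higher and 2 lower in mRNA, and 4 of the 8 induced had a later mRNA peak. Their mRNA medians were 2.49, 1.81, 0.95 and 0.61, beside 2.01, 0.81, 0.02 and 0.08 in chromatin. The chromatin median at 1 h is the fold of Egr1, which the pseudocount of 0.5 makes smaller.

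NF-kB and IkB genes, feedback regulators of signalling and mRNA decay factors were counted next. Of 6 NF-kB and IkB genes 6 rose in chromatin and 5 were past 2-fold in mRNA. Nfkbia, whose protein holds NF-kB in the cytoplasm, was at 3.21, 4.04 and 5.01 RPKM in chromatin at 0 h, 98.9, 121 and 149 at 0.5 h and 44.8, 64.9 and 75.6 at 6 h, with mRNA at 75.7, 2215, 2918, 2259 and 1229 RPKM, so both fractions stayed far above their start at every time. All 10 feedback regulators rose in chromatin and 1 of them also fell, and in mRNA 9 were past 2-fold higher and 1 lower. Of 10 mRNA decay factors 3 rose and 4 fell in chromatin (2 fell when the libraries were centred), with 4 past 2-fold higher and 2 lower in mRNA. Among them Zfp36, which binds AU-rich elements and speeds decay, had chromatin medians of 7.53, 74.2, 39.6, 20.7 and 56.1 RPKM and mRNA at 40.5, 1266, 1292, 234 and 475 RPKM, both lower at 2 h than at 1 or 6 h.

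Interferon-stimulated genes, which carry the second wave, numbered 16. All 16 rose in chromatin at some time and were past 2-fold higher in mRNA, while 2 also fell in chromatin at some time (1 when centred) and 1 was past 2-fold lower in mRNA, and 11 of 11 with a chromatin peak before 6 h had a later mRNA peak. Their chromatin medians were -0.09, 0.50, 2.98 and 2.46, and their mRNA medians -0.19, 0.03, 1.98 and 4.97. Of 25 inflammatory effectors 24 rose and 1 fell in chromatin and all 25 were past 2-fold in mRNA, 11 of 12 with a later peak. Acod1, which makes itaconate, had chromatin medians of 1.77, 55.4, 105, 164 and 160.3 RPKM and mRNA at 8.02, 30.2, 595, 1444 and 3380.4 RPKM.

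Metabolic, lysosomal, receptor and cell cycle genes were counted in the same way. Of 7 glycolysis genes 5 fell and 1 rose in chromatin at some time (5 and 1 also when centred). In mRNA none was past 2-fold lower and 1 was past 2-fold higher. Chromatin medians were -1.67, -1.09, -0.98 and -0.13 and mRNA medians 0.03, 0.03, 0.01 and 0.08, and 4 genes were buffered. Ldha, lactate dehydrogenase, was at 2.21, 3.79 and 5.59 RPKM in chromatin at 0 h and 0.358, 0.871 and 1.56 at 0.5 h, below all libraries at 0 h, with mRNA at 265, 319, 272, 308 and 301 RPKM. Of 14 lysosome genes 10 fell and 2 rose in chromatin (8 and 2 when centred), while 1 was past 2-fold lower in mRNA. Of 15 oxidative phosphorylation genes 7 fell in chromatin, but only 1 when centred, and none was past 2-fold in mRNA. Of 15 macrophage receptors 10 fell and 4 rose (8 and 5 when centred), with 4 past 2-fold in each direction in mRNA. Of 12 cell cycle genes 11 fell and 1 rose (9 and 2 when centred) and 11 were past 2-fold lower in mRNA, all of them at 6 h, with chromatin medians of -0.59, -1.17, -1.42 and -1.53 and mRNA medians of -0.14, -0.18, -0.25 and -2.22.

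For 9 sterol genes chromatin fell in 7 and rose in 2 (6 and 5 when centred), and in mRNA 1 was past 2-fold higher and 2 lower. Of 16 cytoskeleton and housekeeping genes 5 rose and 7 fell (8 and 2 when centred) and 1, Actb, was past 2-fold higher in mRNA. Actb, the actin gene often used as a reference, had chromatin medians of 18.5, 21.3, 22.7, 44.3 and 52.2 RPKM (fold 1.45 ± 0.14 at 6 h, adjusted p = 6.9e-10) and mRNA at 2196, 2962, 3108, 3762 and 5536 RPKM, though the Control experiment had it at 2186 and 2033 RPKM at 0 and 2 h. Of 22 ribosomal protein genes 1 rose and 1 fell in chromatin (4 and 1 when centred) and 3 were past 2-fold lower in mRNA; their many near-identical copies make these values uncertain. Of 5 nuclear-retained RNAs none rose and 2 fell in chromatin (3 and 2 when centred), with 3 past 2-fold lower in mRNA. Malat1, a noncoding RNA kept in the nucleus, stayed at chromatin medians of 1378, 1425, 1467, 1361 and 1222 RPKM, and its mRNA library at 0 h (238 RPKM) was above those after lipid A (125 to 142 RPKM), while the Control libraries had 30.5 and 27.9 RPKM.

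**Figure D5:**
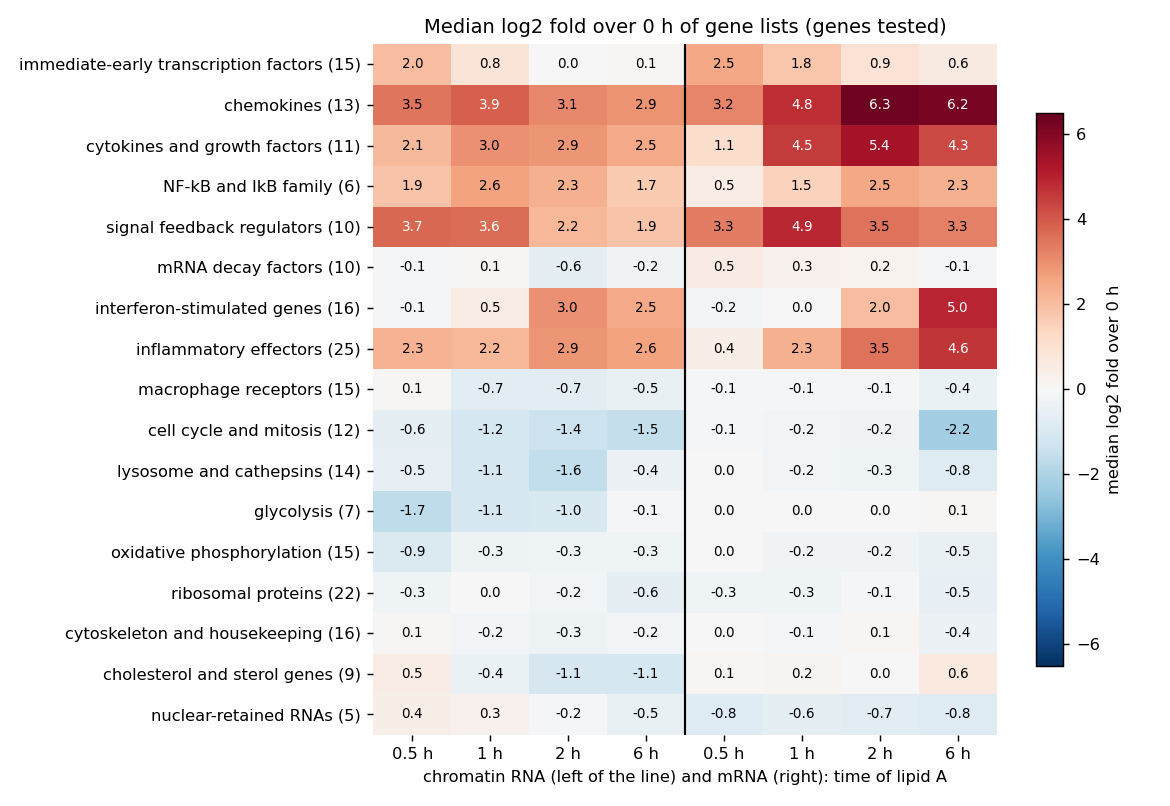
Median log2 fold over 0 h (colour and printed value) of each gene group (rows, number tested in brackets) by time of lipid A (columns, hours), in chromatin RNA left of the line and mRNA right of it. The interferon-stimulated genes turn red at 2 h in chromatin (2.98) and reach 4.97 in mRNA at 6 h, and the glycolysis genes are blue in chromatin at 0.5 h (-1.67) and white in mRNA.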

How the data were processed

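Per the labels, chromatin RNA (stranded libraries) and polyA RNA of wild-type macrophages were sequenced; the submitters' processing notes name HISAT2, SAMtools and mm9. The authors deposited RPKM values per gene in 1 table; in chromatin they are reads over the gene span (100% of values up to 30 reads came out whole, within 0.02). In mRNA, a floor value marks genes without reads and was set to 0. Genes at 1 RPKM or more in 6 of 30 chromatin libraries were fitted with limma 3.58.1 (R 4.3.3) on log2(RPKM + 0.5), series as a term and eBayes with trend, and called at a Benjamini-Hochberg adjusted p under 0.05 and 2-fold (median residual SD 0.21). mRNA, with 1 library per time, was called past 2-fold without a test. The fit was tested on simulated data. Replicate numbers within a series mark libraries that deviated together (correlations 0.1708 to 0.6565 for every series), so they mark pairs, which enter the alternative fit with a replicate block.

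The members and gene lists were chosen with earlier results of these data known. Genes named by rule were the induced genes of largest chromatin fold by lag (8 later, 4 earlier), the largest and smallest mRNA excess at 6 h (8 and 6), the 6 largest of each buffered or unmatched kind and of each direction at 2 h, and up to 4 per list. Alternatives changed the pseudocount, filter, scaling, libraries, bounds and gene set. Genes at 1 RPKM in a single fraction were not analysed here.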

Additional observations from a re-analysis of the deposited data

Results flagged for a closer look

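Of the genes named by rule, 125 had 6 chromatin replicates that could be checked for a library far from the others, at 4 times each, and chance alone flags about 1 in 20 such sets. In 11 sets the gap between the outermost library and its neighbour, over the range of the 6, was above Dixon's 95% value. That is fewer sets than this rate would flag by chance, so they are listed only as values to check. Nfkb1_WT replicate 3 was the outermost library in 5 of them. At 1 h, where it stood apart as a whole, its log2 fold of Nfkb1 was 2.66 (next lowest 3.02) and that of Scarna2 1.76 (next highest 0.43). At 2 h its fold of Ifi205 was 3.08 (next lowest 3.58) and that of Zfp36l2 -2.59 (next -3.02), and at 6 h its fold of Ptms was -1.1 (next -2.07). The Scarna2 value touches a gene whose mRNA moved without chromatin, and the Ptms value a buffered fall.

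In the other 6 sets, Nfkbiz_WT replicate 1 was highest for Airn at 2 h (-0.783, next -1.49), Ndufb8 at 0.5 h (-1.52, next -1.62) and Uqcrc2 at 0.5 h (-0.895, next -1.24). Nfkbiz_WT replicate 2 was highest for Egr1 at 0.5 h (5.41, next 4.26), Nfkb1_WT replicate 2 for Tnfsf9 at 0.5 h (6.84, next 5.82), and Bcl3_WT replicate 2 was lowest for Acod1 at 6 h (4.48, next 5.88). In each of these sets the other libraries had a fold of the same sign, and no cause was tested.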

How the results depend on the processing

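Counts depended on the processing: 319 values under alternatives were close to the reported ones (within 1.5 times for a count), and 62 were not. Of single genes, 1490 values stayed on their side of the threshold with the same sign, 7 lost the call (Ndufv1, Sdhd and Uqcrc2 at 0.5 h, Tmem200b at 1 h) and 3 changed sign: Malat1 at 6 h, 0.00613 when centred, and Mir5132 at 2 h, 0.232 when centred and between -0.389 and 0.0676 with 1 replicate left out (0.0676 without Nfkbiz_WT replicate 2). The cause of the changes below was not tested, apart from fewer genes entering where a filter or gene set is named. mRNA has 1 library per time, and its lower depth limits low mRNA.

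With a start at 1 RPKM in both fractions, chromatin gave 200, 195, 286 and 248 genes higher at 0.5, 1, 2 and 6 h, 160 induced genes, 128 with a later mRNA peak and 96 with a later onset, 18 with mRNA alone at 2-fold at 6 h, and 13 with mRNA alone higher. At 3 RPKM in both, 254, 264, 337 and 206 were lower, 55 rises and 109 falls were buffered, and 10 and 25 genes had mRNA alone higher and lower; polyA was above in 235. With libraries centred, induced genes were 471, of which 365 had a later peak and 302 a later onset, 56 had mRNA alone at 2-fold at 6 h, and 39 mRNA alone higher; the excess of mRNA at 6 h after a peak at 0.5 h was 0.42, and polyA was above in 269 and below in 334. Centred counts were also 538 and 573 higher and 194, 347, 468 and 308 lower in chromatin, 593 lower in mRNA at 6 h, and 145 and 127 buffered. With an mRNA bound of 2-fold, 207 rises and 735 falls were buffered. Without floor values, mRNA alone was higher in 11 and lower in 35 genes.

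With a pseudocount of 0.1, 1408 and 869 genes were lower at 0.5 and 6 h, 460 falls were buffered and polyA was above in 709. With 1, 420, 491, 596 and 343 were lower, 127 falls were buffered, and mRNA alone was higher in 37. For spans of 200 bases or more the mRNA excess was 0.68, and mRNA alone was higher in 8 and lower in 26. With voom on the recovered reads, an alternative chosen after seeing the data, as were the floor and span alternatives, 1519, 1315 and 938 were lower at 0.5, 1 and 6 h, 269 had a later onset, the excess was 0.38 and 552 falls were buffered. Without overlapping genes, mRNA alone was higher in 14 and lower in 27, and rho of chromatin at 2 h was 0.58 with mRNA at 2 h and 0.77 with mRNA at 6 h. With the replicate block, chromatin gave 312 genes higher and 921 lower at 0.5 h, as without it: the balanced design leaves the folds as they were, all 1260 genes past 2-fold at 0.5 h had an adjusted p under 0.05 in both fits (limma), and the median SE went from 0.12 to 0.0996 while 3237 and 3384 genes had an adjusted p under 0.05 at any fold. In the comparison of fractions at 2 h the block gave 434 above and 215 below, and no count of calls moved by over 1.5 times. Leaving out each chromatin replicate gave 299 to 317 induced genes, 206 to 226 with a later mRNA peak, 79 to 88 buffered rises and 284 to 302 buffered falls.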

Other observations

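Several neutrophil granule genes were present in mRNA with almost no chromatin RNA. S100a8, a calcium-binding alarmin, was at 55.4, 40.5, 50.7, 48.8 and 49.2 RPKM in mRNA at 0, 0.5, 1, 2 and 6 h, and at no more than 0.282 RPKM in any of the 30 chromatin libraries. Ngp, a granule protein gene, was at 32.0, 27.6, 30.2, 30.1 and 17.6 RPKM in mRNA and at most at 0.261 RPKM in chromatin. Mpo, the myeloperoxidase gene, was at 4.45, 5.33, 4.08, 3.10 and 0.493 RPKM in mRNA, lowest at 6 h, and Elane, neutrophil elastase, at 3.24, 5.94, 4.37, 4.95 and 0.745 RPKM. None of the 8 granule genes reached 1 RPKM in chromatin, so none is among the genes compared above. Whether these mRNAs come from other cells in the culture or were made before it was not tested.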
